A study of Rattus norvegicus with 4 samples.

Results

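Immediate-early genes were followed in the lens capsules of rats after extracapsular clear lens extraction (ECLE), the surgery that takes the lens content out through the opened capsule and leaves lens epithelial cells (LECs) behind. The genes were chosen by name: *Fos*, *Fosb*, *Jun*, *Junb*, *Egr1*, *Atf3*, *Ier2*, *Btg2*, *Nr4a1* and *Zfp36*. Of these 10 genes, 9 were measured by probe sets that the platform annotation gives to that symbol alone, 12 of the 31042 probe sets that were not controls, and *Btg2* had none. All rats were operated at 7 weeks of age, in both eyes, and were described in the methods as female albino SD rats. LECs of 3 groups were compared on 4 arrays, with 1 array at day 0 (age 7 weeks, collected when the surgery had been completed), 2 biological replicates at 1 W (day 7, age 8 weeks) and 1 array at 2 W (day 14, age 9 weeks). The methods describe 3 rat samples from each group for the arrays, which differs from the 1, 2 and 1 arrays held here. How many eyes were combined on an array was not given in the sources used here. No array held an unoperated eye, so each ratio below is relative to an eye that had just been operated on. The values were linear intensities per probe set, without detection calls.

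Immediate-early genes are a class of genes that cells transcribe soon after a stimulus, from regulators already present and without making new protein first. Growth factors, wounding and stress reach them through MAP kinases, serum response factor and CREB, and their mRNAs are usually short-lived. The products of *Fos*, *Fosb*, *Jun*, *Junb* and *Atf3* carry a leucine zipper and pair into AP-1 and related dimers. *Egr1* encodes a zinc finger factor and *Nr4a1* an orphan nuclear receptor. *Zfp36* encodes tristetraprolin, which binds AU-rich elements and speeds the decay of mRNAs, *Btg2* an antiproliferative cofactor and *Ier2* a small nuclear protein.

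Promoter sequence is shown for the 4 members with a CArG box, a full CRE or a TATA box within 120 bases before the start, to set the best known inputs of this class, serum response factor and CREB, and the core promoter beside the values. The RefSeq promoter table of the GRCr8 assembly, with 250 bases before and 50 after each start, held 7 of the 10 members: *Egr1*, *Zfp36*, *Ier2*, *Junb*, *Fosb*, *Nr4a1* and *Btg2*. *Fos*, *Jun* and *Atf3* were not matched in it. Each stretch below gives the 120 bases before the start, 5′ to 3′ on the strand of the gene, with the CArG boxes of *Egr1* and *Zfp36*, the CRE of *Ier2* and the TATA box of *Junb* in capitals. They lie at chr18:26736958-26737077 (plus strand, *Egr1*), chr1:92799109-92799228 (minus strand, *Zfp36*), chr19:40399253-40399372 (plus strand, *Ier2*) and chr19:40081006-40081125 (plus strand, *Junb*).
Egr1: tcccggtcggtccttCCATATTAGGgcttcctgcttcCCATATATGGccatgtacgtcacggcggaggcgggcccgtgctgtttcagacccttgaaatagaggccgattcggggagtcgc
Zfp36: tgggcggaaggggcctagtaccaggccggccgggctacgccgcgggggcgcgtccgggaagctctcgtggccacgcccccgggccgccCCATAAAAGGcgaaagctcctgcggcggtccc
Ier2: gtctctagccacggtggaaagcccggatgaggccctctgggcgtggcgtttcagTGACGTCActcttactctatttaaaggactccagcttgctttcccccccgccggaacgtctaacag
Junb: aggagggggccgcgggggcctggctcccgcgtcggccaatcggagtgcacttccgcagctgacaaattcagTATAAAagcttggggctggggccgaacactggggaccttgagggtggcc

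Motifs were searched on both strands of the whole windows. The CArG box, the site of serum response factor, was found in *Egr1*, with 2 copies, and in *Zfp36*, with 1 copy, thus in 2 of the 7 member promoters and in 1.64% of all 33469 promoters. The CRE, TGACGTCA, was found in *Ier2* and *Btg2* (1.83% of all promoters), and its core, TGACG, which lies within it, in 5 of the 7 (21.2%). The EGR site, GCGNGGGCG, was found in *Zfp36*, *Nr4a1* and *Btg2* (4.98%), and the ETS core, CCGGAA, in *Nr4a1* and *Ier2* (15.0%). The letters of the TATA box, TATAAA, were found in *Junb* and *Fosb* (14.2%), and the AP-1 site, TGANTCA, in none (7.33%). The *Junb* match lies on the strand of the gene, at -49 to -44 from the start. That of *Fosb* lies on the opposite strand, at -180 to -175, and is a match of letters only. With 7 promoters these matches are a description of the letters in these windows.

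The array medians lay between 31.9 (2 W) and 57.0 (day 0), 0.84 log2 units apart, so intensities were scaled to the mean of their own array before ratios were taken, and log2 ratios below are to day 0. Genes were represented by their brightest probe set, and 10455 of 14217 genes, among them 8 of the 9 members, reached the 40th percentile of mean level that was asked of tested probe sets. *Fosb* did not reach it. The median log2 ratio of the 10455 genes was -0.02 and 0.01 for replicates 1 and 2, against -0.21 at 2 W, and the members' ratios are read against these shifts. All 12 lens epithelium markers listed for the check of the tissue reached the filter, with median log2 ratios of -0.15 and -0.07 for replicates 1 and 2 and -0.71 at 2 W. *Cryaa*, which encodes αA-crystallin, lay between 7430 and 8741 on the 4 arrays, while *Cdh1*, which encodes E-cadherin and was named after its values were seen, read 6852 at day 0, 3008 on replicate 1, 2485 on replicate 2 and 1250 at 2 W. The capsules also carried transcripts of photoreceptors and macrophages. In such bulk RNA, fewer cells of a type and less RNA per cell cannot be told apart. The ratio of 3′ to 5′ control probe sets grows as RNA degrades. For beta-actin it was 2.32 at day 0, 1.89 for replicate 1, 1.90 for replicate 2 and 1.61 at 2 W. For GAPDH it was nearly flat, at 1.16, 1.12, 1.18 and 1.1 in the same order. The part of RNA quality in the results was not tested.

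The AP-1 subunit *Junb* stood farthest above day 0 at 1 W. Day 0 gave an intensity of 50.8, replicates 1 and 2 at 1 W gave 323 and 117, and 2 W gave 80.9. After scaling these were ratios of 7.14, 2.69 and 2.36 to day 0. All 3 arrays after ECLE were thus above day 0, with replicate 1 the highest by a wide margin. The log2 ratio at 1 W was 2.13 (standard error 0.64, n = 2 arrays at 1 W), with an unadjusted p of 0.0272 and an adjusted p of 0.229 from limma. At 2 W it was 1.24 (standard error 0.73, adjusted p = 0.318). *Junb* was the only member over 2.0-fold of day 0 on each of the 3 arrays, a rule that 2.51% of the 10455 genes met. With the values as deposited, no member met it.

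*Fos*, the partner of Jun proteins in AP-1, gave opposite pictures by its 2 probe sets. The brighter one read 131 at day 0, 703 on replicate 1, 182 on replicate 2 and 173 at 2 W. Its log2 ratios were 2.59, 0.69 and 0.97, so replicate 1 lay apart from the other arrays, while replicate 2 and the 2 W array were close to each other. The mean log2 ratio at 1 W was 1.64 with a standard error of 0.83 (adjusted p = 0.37 from limma), and that at 2 W had a standard error of 0.95 (adjusted p = 0.528). The dimmer probe set, below the filter and not tested, read 23.1 at day 0, 10.2 on replicate 1, 5.32 on replicate 2 and 9.29 at 2 W, with every ratio below day 0 (log2 -1.01, -1.90 and -0.75). Both probe sets were higher on replicate 1 than on replicate 2. *Fosb*, a close relative of *Fos*, was among the dim probe sets of every array, between the 17.6 and 23.4 percentiles. Its intensities were 9.15 at day 0, 10.02 on replicate 1, 7.63 on replicate 2 and 6.94 at 2 W, with log2 ratios of 0.30, -0.04 and 0.17, and nothing can be said of it beyond that it was dim.

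*Jun* and *Atf3* stood closer to day 0. *Jun*, which can pair with itself or with *Fos* products, was measured by 3 probe sets. The brightest read 344 at day 0, 473 on replicate 1, 309 on replicate 2 and 340 at 2 W, with log2 ratios of 0.63, 0.06 and 0.55. The other 2 probe sets had log2 ratios of 0.76 and 0.84 on replicate 1, 0.05 and 0.20 on replicate 2, and 0.79 and 0.68 at 2 W. All 3 therefore placed replicate 2 next to day 0 and the other arrays above it, although with the values as deposited the brightest had a log2 ratio of -0.02 at 2 W. None of the 3 passed limma at either time (adjusted p between 0.253 and 0.557). *Atf3*, a stress-induced member of the ATF/CREB family, read 33.8 at day 0, 55.3 on replicate 1, 36.1 on replicate 2 and 52.4 at 2 W. On the log2 scale it stood 1.20 above day 0 at 2 W (standard error 0.46, adjusted p = 0.177), against 0.88 and 0.31 on replicates 1 and 2 at 1 W (mean 0.59, standard error 0.40, adjusted p = 0.476). With mean scaling it was the only member with its highest ratio at 2 W, but no member was highest there with the values as deposited, and *Jun* joined it with median, 75th percentile and quantile scaling, as did *Nr4a1* and *Fosb* with the 75th percentile.

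*Egr1*, whose promoter holds the pair of CArG boxes shown above, followed the order of arrays seen for *Fos*, and *Nr4a1* was near day 0. *Egr1* read 265 at day 0, 905 on replicate 1, 373 on replicate 2 and 376 at 2 W. These values corresponded to ratios of 3.84, 1.64 and 2.10. With mean scaling every array after ECLE was above day 0 by over 1.5-fold, and replicate 1 was 2.34 times replicate 2. With the values as deposited, the log2 ratios of *Egr1* were 1.77, 0.50 and 0.505, the last 2 below 1.5-fold. The log2 ratio was 1.33 at 1 W (standard error 0.54, adjusted p = 0.309) and 1.07 at 2 W (standard error 0.63, adjusted p = 0.312). *Nr4a1* read 43.6 at day 0, 44.8 on replicate 1, 32.3 on replicate 2 and 31.4 at 2 W. Its log2 ratios of 0.21, -0.21 and 0.09 fell on both sides of day 0, the sign of its mean at 1 W depended on the scaling, and limma gave adjusted p-values of 0.997 at 1 W and 0.907 at 2 W.

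Among the remaining members, *Zfp36* resembled *Egr1* and *Ier2* did not. *Zfp36* read 67.9 at day 0, 166 on replicate 1, 84.2 on replicate 2 and 77.2 at 2 W. Its log2 ratios were 1.45, 0.53 and 0.75, again with replicate 1 above the other arrays (mean at 1 W 0.99, standard error 0.45, adjusted p = 0.341; at 2 W adjusted p = 0.382). *Ier2* read 205 at day 0, 295 on replicate 1, 156 on replicate 2 and 82.3 at 2 W. With mean scaling it was the only member whose 2 W array was below both arrays at 1 W and below day 0, with -0.75 on the log2 scale at 2 W (standard error 0.48, adjusted p = 0.345) and 0.70 and -0.17 on replicates 1 and 2 (adjusted p = 0.754 at 1 W). Between 2 W and 1 W it differed by -1.01 on the log2 scale (standard error 0.41, adjusted p = 0.256).

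**Figure D1:**
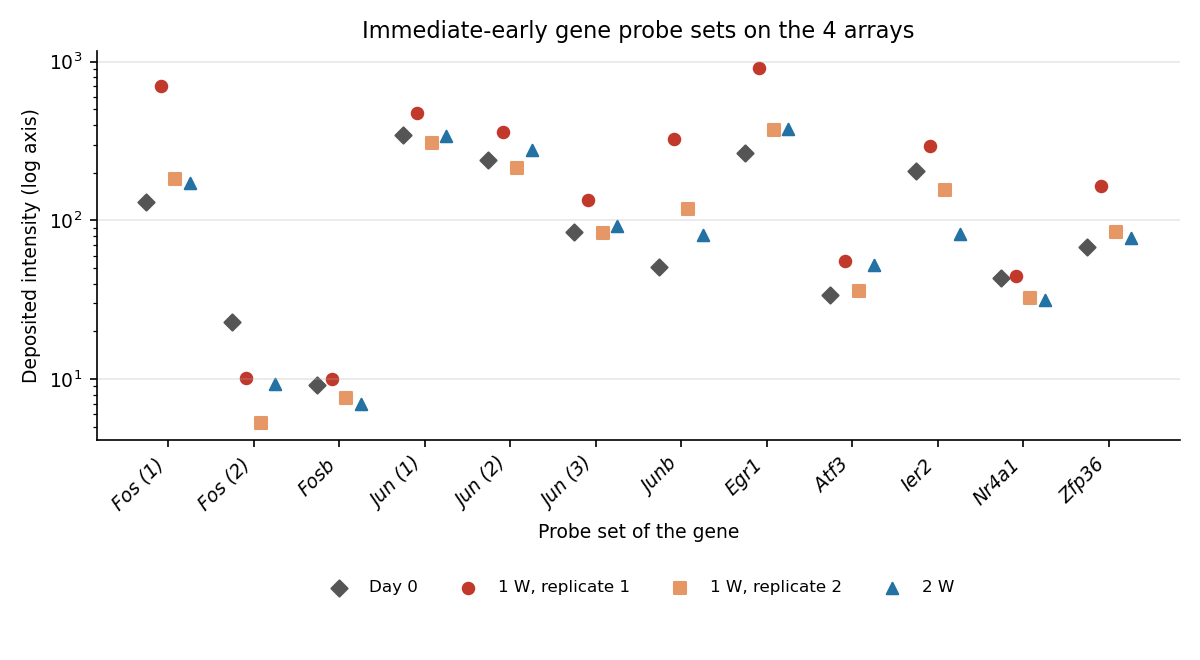
Deposited intensity (vertical axis, log scale) of the 12 probe sets of the members by array, where diamonds are day 0, circles and squares replicates 1 and 2 at 1 W, and triangles 2 W, with probe sets of *Fos* and *Jun* numbered from the brightest. The circles stand above the squares for every probe set, and the dimmer *Fos* probe set has its highest value, 23.1, at day 0.

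No member passed limma after Benjamini-Hochberg adjustment in any comparison (0 of the 8 tested at 1 W, at 2 W or between 2 W and 1 W). Of all 18625 tested probe sets, 0.0483% were called higher than day 0 at 1 W and 0.0483% at 2 W, none were called lower, and between 2 W and 1 W the shares were 0.0% higher and 0.0% lower. These counts depended on the scaling: at 2 W, 344 probe sets were called higher and 7630 lower with the values as deposited, 948 and 683 with median scaling, 276 and 123 with 75th percentile scaling, and none with quantile scaling, and no member was among them. With p under 0.05 before adjustment, 1 member (*Junb*) passed at 1 W against 17.9% of the probe sets, 0 at 2 W against 30.9%, and 0 between 2 W and 1 W against 21.9%. The only spread in the fit came from the 1 W pair, the single arrays at day 0 and 2 W being assumed to vary likewise, and these replicates differed for the members more than for most genes. By the fold rule of the methods, 3 of the 8 (*Junb*, *Fos* and *Egr1*) were over 2.0-fold by the mean at 1 W, against 4.95% of the 10455 genes, and 3 (*Junb*, *Atf3* and *Egr1*) at 2 W, against 6.6%. The count at 2 W was 0 with the values as deposited (2.89% of genes) and 5 with median, 75th percentile or quantile scaling, where *Fos* and *Zfp36* joined (9.17% to 11.5%). At 1 W it was 4 on replicate 1 alone (5.3% of genes), with *Zfp36* added, and 1 on replicate 2 alone (*Junb*, against 5.29%). By the mean of both, *Zfp36* at 1 W (1.99-fold) and *Fos* at 2 W (1.96-fold) lay just under that threshold. By the brightest probe sets, none of the 8 was under 0.5-fold at 1 W (3.71% of genes) or 2 W (12.3%), although *Ier2* was at 2 W with the values as deposited, as 36.4% of genes were.

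**Figure D2:**
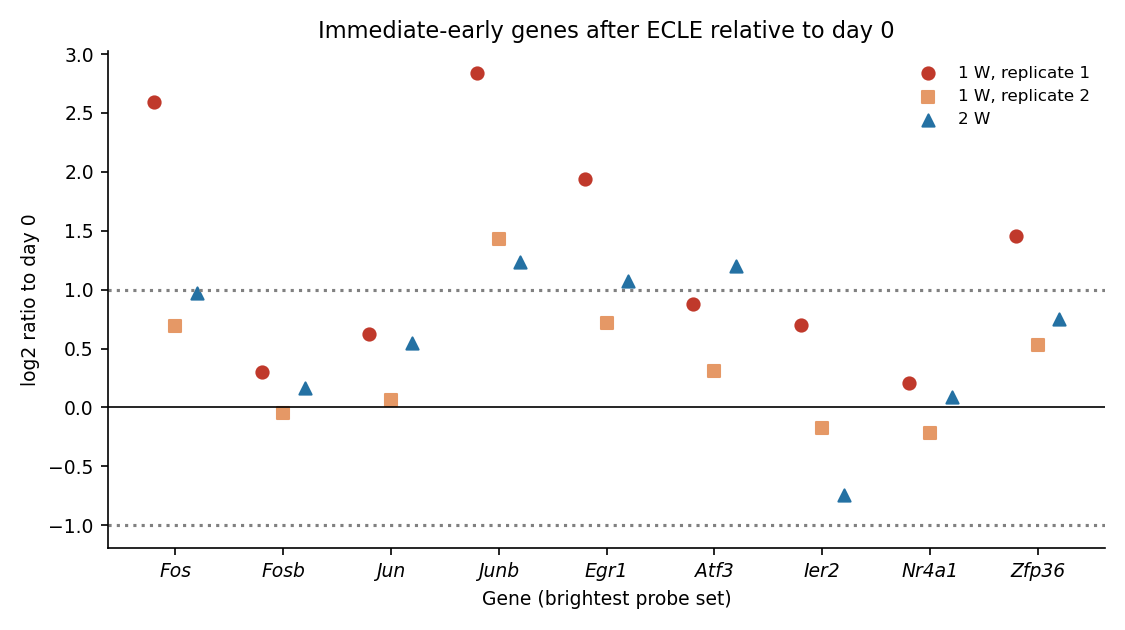
Log2 ratio to day 0 (vertical axis) of the 9 measured members, each by its brightest probe set, where circles and squares are replicates 1 and 2 at 1 W and triangles 2 W, with dotted lines at 2.0-fold and 0.5-fold. Only *Junb* has all 3 points above the upper dotted line, and the *Ier2* triangle at -0.75 is the lowest point.

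The direction was shared more widely than the size. *Junb*, *Fos*, *Egr1*, *Zfp36*, *Atf3* and *Jun*, 6 of the 8 tested members, were above day 0 on each of the 3 arrays, as 26.6% of the 10455 genes were (with the values as deposited 5, without *Jun*). Their smallest ratio was that of *Jun* on replicate 2 (1.04). Replicate 1 gave a median log2 ratio of 1.16 over the 8, replicate 2 gave 0.42 and 2 W gave 0.86. The order of the 9 measured members was alike on both replicates for the upper ranks: *Junb* came first, *Fos* and *Egr1* next, then *Zfp36* and *Atf3*. At 2 W *Junb*, *Atf3*, *Egr1* and *Fos* spanned only log2 ratios from 0.97 to 1.24, less than the standard error of any of them, and their order there is not resolved. Nor is that of neighbours at 1 W, whose mean log2 ratios differed by less than the larger of their standard errors. For 5 of the 8 members (*Fos*, *Jun*, *Egr1*, *Nr4a1* and *Zfp36*) the 2 W value lay between both arrays at 1 W, against 17.7% of the 10455 genes (3 members and 9.99% with the values as deposited, 5 and 21.1% with median scaling). A value falls between 2 others more often where these lie farther apart. The arrays at 1 W lay farther apart for the members (median absolute log2 difference 0.90, against 0.18 for all genes). Whether the count is a trait of the 2 W values was not tested.

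The pattern the members shared most plainly was the difference between the replicates at 1 W. All 8 tested members were higher on replicate 1 than on replicate 2, against 47.1% of the 10455 genes, and 3 of them by over 2.0-fold (*Fos* 3.73-fold, *Junb* 2.66-fold, *Egr1* 2.34-fold), against 1.79%. The smallest log2 difference among the 8 was 0.42, for *Nr4a1*, and the median was 0.90. Over the 10455 genes the median absolute difference was 0.18. In size, the difference of *Fos* lay at the 99.2 percentile of these genes, those of *Junb* and *Egr1* at 97.9 and 96.9, and those of the other 5 between 79.0 and 94.4. *Fosb*, dim and not tested, read 0.34 higher on replicate 1, but with a floor under dim values its log2 ratios were 0.085 and 0.029 on replicates 1 and 2. No test of a difference between 2 single arrays is possible.

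Other gene groups differed between the replicates too. Of 7 melanocyte and iris pigment markers, 7 were higher on replicate 1 (median log2 difference 1.75), and the summed scaled intensity of the list was 2526 at day 0, 17780 and 7047 for replicates 1 and 2, and 9284 at 2 W. All 6 tested smooth muscle markers were higher as well (median 1.27, sums for the 8 measured of 328 at day 0, 2823 and 1705 for the replicates, and 1298 at 2 W), as were 3 of 4 endothelial markers (0.76) and 8 of 9 lens fiber markers (1.08). *Tagln*, which encodes the smooth muscle protein transgelin, was the only gene of any list that limma called, at both times. Its log2 ratios were 6.08, 5.79 and 4.75 (adjusted p = 0.0297 at 1 W and, rounded, 0.05 at 2 W). With quantile scaling no probe set was called at 2 W, and limma without a trend called none at either time. Most of the smooth muscle sums came from *Tagln* and *Acta2*, whose log2 differences between the replicates were 0.29 and 0.16. Those of *Myh11*, *Cnn1*, *Des* and *Smtn*, named like *Acta2* after their values were seen, were 2.95, 2.73, 1.94 and 0.61. The paper found αSMA, the product of *Acta2*, in fibroblastic LECs of wounded mouse lenses, so *Acta2* is not particular to muscle. Of 13 macrophage markers 11 were higher, by a median of 0.23, with sums over 15 of 624 at day 0, 4158 and 3323 for the replicates, and 2326 at 2 W. All 10 photoreceptor markers were lower on replicate 1 (median -2.12, sums for 11 measured of 13233 at day 0, 1332 and 5624 for the replicates, and 1766 at 2 W), and the 12 lens epithelium markers were evenly divided (6 higher, median 0.04, sums of 39400 and 39722). None of the 6 measured neutrophil markers reached the filter, and only 1 erythrocyte and 2 corneal markers did. No probe set was listed at 0. The part of these cell types in the members' values was not tested.

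**Figure D3:**
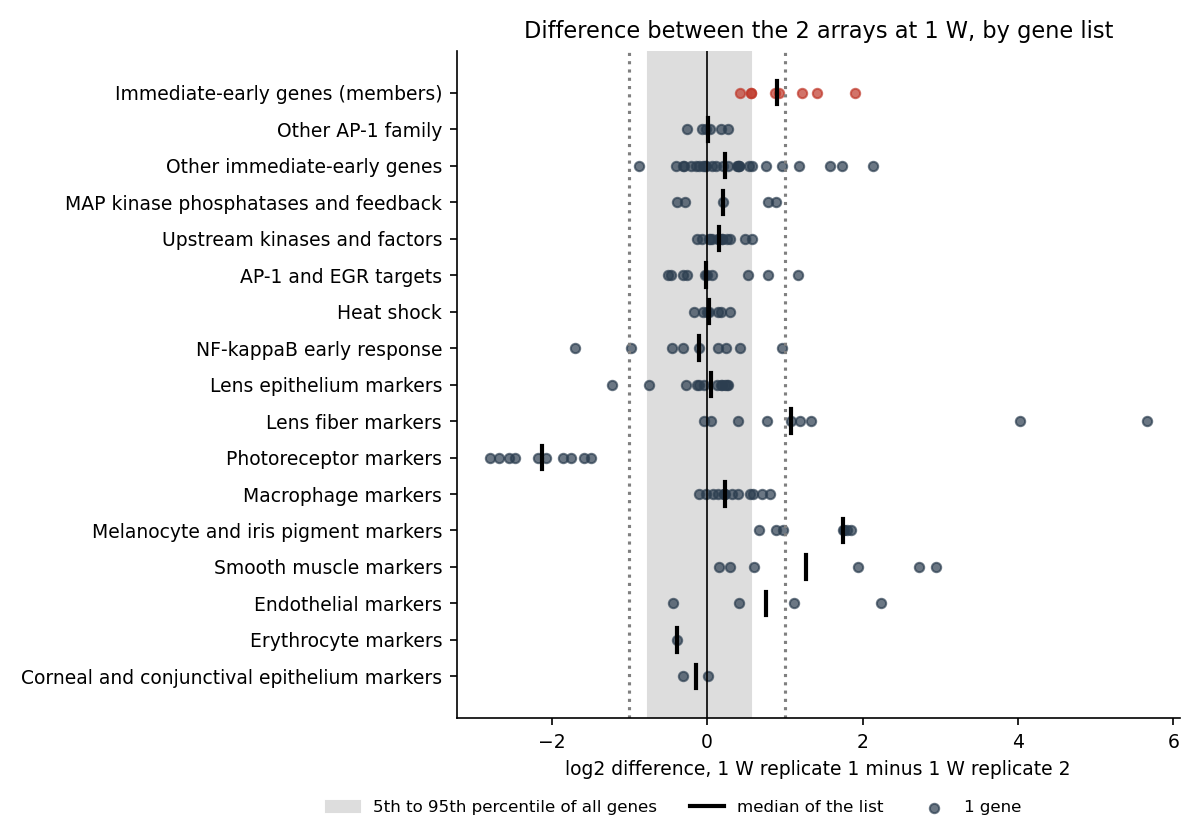
Log2 difference between replicate 1 and replicate 2 at 1 W (horizontal axis) for each tested gene of the gene lists, with the median of each list as a black bar, the 5th to 95th percentiles of the 10455 genes shaded (-0.76 to 0.56) and dotted lines at 2-fold. The members (red) all lie right of 0 with a median of 0.90, while the other AP-1 genes and heat shock genes center near 0.

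Lists of genes of the same class and pathways outside the members had smaller median differences between the replicates. Of 26 tested immediate-early genes outside the members, 16 were higher on replicate 1 (median 0.24), against 47.1% of the 10455 genes. Of these, 4 were higher by over 2-fold, against 1.79% of all genes: *Cebpd*, *Ccn1*, *Klf2* and *Socs3*. These, and the 3 genes added below for their fold, were named after their values were seen. *Ccn1*, a matricellular protein induced by serum response factor and YAP, read 25.6 at day 0, 492 on replicate 1, 142 on replicate 2 and 98.6 at 2 W. *Cebpd*, a factor of the acute phase response, read 25.1 at day 0, 229 on replicate 1, 50.2 on replicate 2 and 57.8 at 2 W. *Ccn1* and *Cebpd* were over 2.0-fold of day 0 on each array, as were the added genes *Ptgs2*, *Plk2* and *Zfp36l1*, 5 of the 26 in all, against 2.51% of all genes. *Ptgs2*, the inducible cyclooxygenase, had log2 ratios of 3.34 and 3.47 on replicates 1 and 2, so its replicates were close. The 2 brightest genes of the list were *Zfp36l2*, a relative of *Zfp36*, with log2 ratios of -0.43, -0.13 and -1.05 on the 3 arrays, and *Rhob*, a small GTPase, with 1.04, 0.47 and 1.35. None of the 26 was called by limma at any comparison.

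AP-1 relatives outside the members were mostly dim or near day 0. Of 11 measured, 6 reached the filter, with a median log2 ratio of -0.15 and -0.26 on replicates 1 and 2 and -0.06 at 2 W, and 3 of the 6 were higher on replicate 1. *Jund*, the constitutive Jun protein, read 2413 at day 0, 1877 on replicate 1, 1769 on replicate 2 and 2545 at 2 W. *Atf4*, a factor of the integrated stress response, had log2 ratios of -0.41, -0.34 and -0.18. *Jdp2*, named after its values were seen, stood farther below day 0, with log2 ratios of -1.43, -1.18 and -0.81. Its adjusted p from limma was 0.153 at 1 W and 0.155 at 2 W. No tested AP-1 relative was over 2.0-fold or under 0.5-fold of day 0 on every array after ECLE, and limma called none of them.

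Feedback genes and regulators upstream of the members were not called either. *Dusp6*, the phosphatase of ERK, had log2 ratios of 1.36 and 1.64 at 1 W and 0.46 at 2 W, and *Spry2*, an inhibitor of growth factor signaling, had 0.69, 0.48 and -0.31. Of the 5 tested genes of this feedback list, 3 were higher on replicate 1, and the median log2 difference between replicates over the 5 was 0.21. *Dusp1* was at 0.89 and *Dusp8* at 0.78, while *Dusp6* was at -0.28 and *Spry4* at -0.39. *Dusp1*, *Dusp8* and *Spry4* were picked after their values were seen. Of the 13 tested upstream kinases and factors, 11 were higher on replicate 1, but by a median of 0.15 only and none by over 2-fold. *Map2k1* and *Map2k2*, the MEK kinases, had log2 ratios of 0.37 and 0.19 on replicate 1, 0.11 and 0.17 on replicate 2, and -0.05 and 0.62 at 2 W. Among 10 tested genes listed as targets of AP-1 and EGR factors, 4 were higher on replicate 1 and 2 were over 2.0-fold of day 0 on each array. *Cd44*, the hyaluronan receptor, was one of them with log2 ratios of 1.94, 1.42 and 1.70, while *Timp1*, an inhibitor of matrix metalloproteinases, had -0.20, 0.11 and -0.91. The 7 tested heat shock genes had close replicates (median log2 difference 0.02), with *Hspd1* at 0.77, 0.60 and 0.45 and *Dnaja1* at 0.65, 0.63 and 0.49. Of 9 tested genes of the early NF-κB response, 4 were higher on replicate 1, and *Ccl2*, a monocyte chemokine, had the opposite split from the members, with 2.03 on replicate 1, 3.74 on replicate 2 and 2.22 at 2 W. *Nfkbia*, the inhibitor of NF-κB, had 0.05, -0.10 and -0.49. No gene of these lists was called in any comparison.

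None of the 3 genes whose ratios were most like those of *Egr1*, or of *Fos*, was in the immediate-early lists. Likeness was measured as the root mean square difference of the 3 log2 ratios to day 0, over 4 arrays. The 3 nearest to *Egr1* were *Ifgga2l1* (0.0714), *Tyrp1* (0.119), an enzyme of melanin synthesis, and *Adgre1* (0.136), the F4/80 receptor of macrophages. Nearest to *Fos* were *Oas1a* (0.19), an interferon-induced enzyme, *Fli1* (0.22), an ETS factor of blood and endothelial cells, and *Ifgga2l1* (0.318). *Tyrp1*, for example, had log2 ratios of 1.81, 0.83 and 1.17, beside 1.94, 0.72 and 1.07 for *Egr1*.

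The scaling of the arrays mattered most at 2 W. The median log2 ratio of the 10455 genes there was -0.78 with the values as deposited, -0.21 with mean scaling, 0.06 with median, 0.10 with 75th percentile and 0.03 with quantile scaling. Over these settings and a floor under dim values *Junb* ranged from 0.67 to 1.55 at 2 W and stayed above day 0, *Ier2* ranged from -1.31 to -0.43 and stayed below it, and *Jun* ranged from -0.02 to 0.87. At 1 W the same settings left *Junb* between 1.94 and 2.25.

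**Figure D4:**
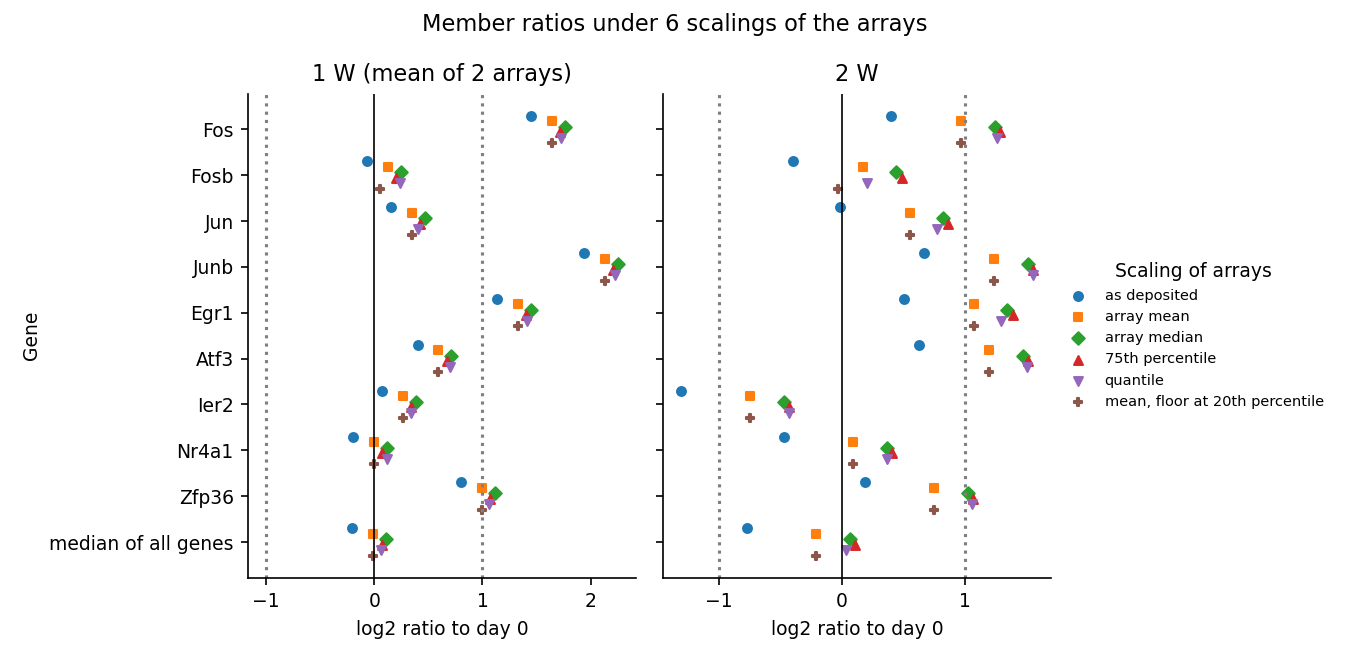
Ratio to day 0 on a log2 scale (horizontal axis) for each measured member and for the median over the 10455 genes at 1 W (left, mean of both arrays) and at 2 W (right) under 6 scalings of the arrays, with dotted lines at 2.0-fold and 0.5-fold. At 2 W the values as deposited lie to the left of the others for every member, and *Jun*, *Nr4a1* and *Fosb* lie below 0 there.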

How the data were processed

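LEC RNA of 4 arrays was analysed. The authors labeled the RNA with the GeneChip 3′ IVT PLUS kit, hybridized rat genome arrays, scanned them with Command Console and summarized probe sets in Expression Console, which the submitters' processing notes also name. The deposited values are linear intensities. The summary algorithm used for them is not given in the sources, nor whether they had already been normalized per chip. The 57 control probe sets were left out, intensities were scaled to the mean of their array and put on the log2 scale, because the array medians were over 0.5 log2 units apart. Symbols come from the platform annotation. The 18625 probe sets whose mean level reached the 40th percentile went into limma 3.58.1, run in R 4.3.3 (3 groups, eBayes with an intensity trend, 1 residual and 3.12 prior degrees of freedom, Benjamini-Hochberg adjustment over all of them, threshold 0.05, two-sided), and the fit was tested on simulated data. A gene is represented by its brightest probe set. The rule for genes to name takes all members, up to 2 called genes per direction of each list or else its 2 brightest, and the 3 genes most like *Fos* and *Egr1*. Marker lists are given mostly as sums, and names outside the rule are marked as picked with values in view. The members and lists were chosen with earlier results of these data known. Alternatives were other scalings, a floor, other filters, limma without a trend, all arrays after ECLE as 1 group, every probe set, and each replicate at 1 W left out, which leaves limma without residual degrees of freedom and thus gives values only. Tables were made with Python 3.11.15. The number of arrays limits the precision, and the p-values measure only the spread between the 2 arrays at 1 W.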

Additional observations from a re-analysis of the deposited data

Results flagged for a closer look

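With mean scaling, which leaves the median of all genes at -0.21 at 2 W, 3 of the genes named by rule had a 2 W ratio opposite in sign to both arrays at 1 W. *Jund* had a log2 ratio of 0.64 at 2 W, against -0.20 and -0.23 at 1 W, and its difference between 2 W and 1 W did not pass limma (adjusted p = 0.139). Its signs were the same under every scaling run (0.077 to 0.96 at 2 W). *Spry2* had -0.31 at 2 W, against 0.69 and 0.48 at 1 W (adjusted p = 0.146), and 0.007 at 2 W with 75th percentile scaling. *Map2k1* had -0.048 at 2 W, against 0.37 and 0.11 at 1 W (adjusted p = 0.397), which is above the median of all genes, and 0.17 to 0.27 at 2 W with median, 75th percentile and quantile scaling. The signs of *Spry2* and *Map2k1* at 2 W therefore depend on the scaling.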

How the results depend on the processing

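No member was called by limma in any comparison under any alternative run, while the share of all probe sets called at 2 W ranged from 0.0% (quantile scaling, or no trend) to 8.76% (median scaling) and 42.8% (values as deposited), at 1 W from 0.0% (no trend) to 2.18% (median scaling), and between 2 W and 1 W up to 23.7% (values as deposited). The adjusted p of *Junb* at 1 W ranged from 0.0969 to 0.335, and the lowest of any member was 0.0583, for *Ier2* between 2 W and 1 W. With the values as deposited, 0 members in place of 1 were past the fold rule on each array and the median log2 ratio of the 9 measured members at 2 W was 0.19 in place of 0.75, since this scaling lowers all genes at 2 W (median -0.78). Leaving out a replicate at 1 W gave 1 to 2 members past the fold rule, *Egr1* joining *Junb* without replicate 2. It moved the median log2 ratio of 2 W over 1 W (-0.24) to values between -0.70 without replicate 2 and 0.28 without replicate 1. It was also 0.069 with every probe set, and between -0.086 and -0.0 with median, 75th percentile and quantile scaling, so its direction is not settled. The ratio of *Fos* had the other sign by its dimmer probe set at 1 W (-1.45) and 2 W (-0.75). With the values as deposited, *Fosb* had -0.065 at 1 W and -0.40 at 2 W, *Jun* -0.017 and *Nr4a1* -0.47 at 2 W, and with a floor *Fosb* had -0.036 at 2 W. *Nr4a1* at 1 W (-0.004) was 0.12 with median scaling, 0.072 with 75th percentile scaling and 0.12 with quantile scaling. Across the replicates left out, the 1 W ratio ranged from -0.043 to 0.30 for *Fosb*, -0.17 to 0.70 for *Ier2* and -0.21 to 0.21 for *Nr4a1*. The cause of these changes was not tested. The other single-gene values kept their sign. Without detection calls, signal over background is unknown, and *Fosb* and the dimmer *Fos* probe set are the least certain.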
